A study of Mus musculus with 12 samples.

Results

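The data compared here are 6 of the 12 messenger RNA libraries of a study of cultured mouse pancreatic islets: 3 libraries of islets given palmitate with C3a and 3 of islets given vehicle with C3a. The libraries were taken by their treatment labels, not by any measured value, and all 15794 genes that passed a low-count filter were compared. Per the labels, islets of male wild-type mice aged 10 to 12 weeks were cultured in lots of about 120, and both groups received C3a, so the groups differed in palmitate alone. The other 6 libraries were cultured without C3a, 3 with vehicle and 3 with palmitate, and served to estimate the spread and to compare the palmitate effect without C3a. The doses and the length of culture are not in the labels, and they do not say that replicates are separate mice or cultures. For replicates 2 and 3 they carry a date, the same for all 4 groups, without saying what was done on it, so the p-values refer to the spread among these libraries, which may be technical.

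C3a is the peptide released when complement C3 is cleaved, and C3ar1 is its G protein-coupled receptor. Palmitate is a saturated fatty acid that harms beta cells on long exposure. Fatty acids activate the PPAR nuclear receptors, which raise genes of fatty acid uptake and oxidation. Cell stress that leads to phosphorylation of the translation factor eIF2 starts the integrated stress response, in which the transcription factors ATF4 and CHOP (the product of Ddit3) raise genes for amino acid synthesis, amino acid transport and tRNA charging. The title of the study names cell death of islets under C3a, and the comparison made here asks which transcripts differed with palmitate when C3a was present in both groups.

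Library totals ran from 22216420 to 26110989 estimated counts in sequencing batch 1, which held replicate 1 of both groups, and from 35876350 to 50264695 in batch 2, which held replicates 2 and 3. Islet hormone genes marked every library: Ins1, Ins2, Gcg, Sst and Ppy were at 30750 CPM or more, 82040 or more, 23850 or more, 1423 or more and 1033 or more, respectively, where CPM is counts per 1000000 of the scaled library. RNA of exocrine acinar cells was present at a summed level of 3561 to 7073 CPM over 26 digestive enzyme and acinar factor genes, and these sums overlapped between the groups. A pair of palmitate libraries stood apart from the rest. Palmitate with C3a replicate 3 held 2036 CPM of 15 fibroblast and pericyte markers against 409 to 844 CPM in the other 5 libraries, and 545 CPM of 15 macrophage markers against 286 to 395 CPM. Palmitate with C3a replicate 2 held 12180 CPM of 29 hypoxia and glycolysis genes against 5021 to 8163 CPM elsewhere. Each library value below is given in the order of replicates 1, 2 and 3.

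**Figure D1:**
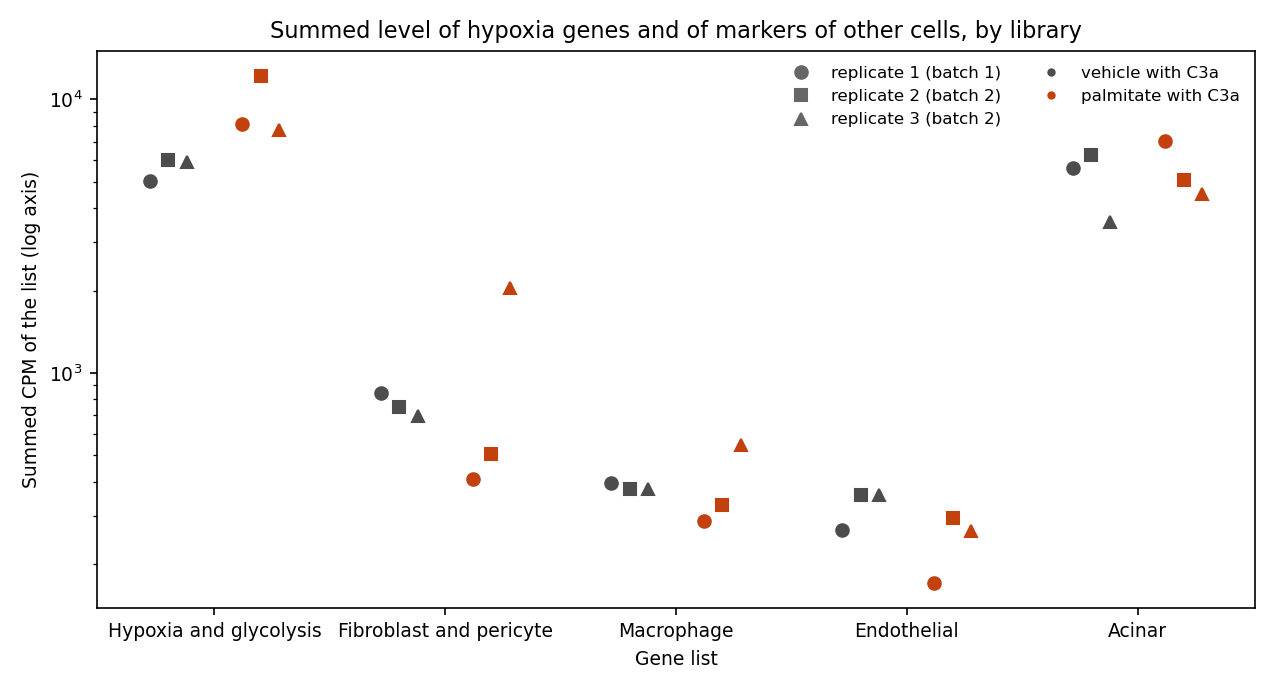
Summed CPM (vertical axis, log scale) of the hypoxia and glycolysis genes and of the markers of 4 other cell types (horizontal axis) in each of the 6 libraries, with vehicle with C3a in grey, palmitate with C3a in orange and the replicates by shape. Palmitate with C3a replicate 3 lies at 2036 CPM of fibroblast and pericyte markers and replicate 2 at 12180 CPM of hypoxia genes, each above the other 5 libraries, while the acinar sums of the groups overlap.

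Palmitate changed the level of 4246 of 15794 genes in islets given C3a, 26.9% of those tested, by edgeR's quasi-likelihood test at a Benjamini-Hochberg adjusted p under 0.05. Of these genes 2175 were higher (13.8% of those tested) and 2071 lower (13.1%). Most changes were small: the median size was 0.34 on the log2 scale, a 1.26-fold difference. A change of at least 1.5-fold was seen for 902 called genes (507 higher, 395 lower), of at least 2-fold for 318 (217 higher, 101 lower) and of at least 4-fold for 62 (50 higher, 12 lower), so the large changes lay mainly on the higher side. The difference had 1 direction in all 3 same-numbered pairs for 4229 called genes, and for 3353 the 3 palmitate libraries did not overlap the 3 vehicle libraries. Over all genes tested, 4738 (30.0%) had groups that did not overlap. Over the called genes, the differences of replicate pairs 1 and 2 correlated at 0.900, of pairs 1 and 3 at 0.876 and of pairs 2 and 3 at 0.892, a description across genes that were themselves called on these libraries. With replicates 2 and 3 alone, 2331 genes were called, of which 2244 (96.3%) differed in the same direction in the pair of batch 1. The median log2 fold change of all genes tested was 0.01, so list medians can be read against a value near 0. In these bulk libraries, fewer cells of a type and less RNA per cell cannot be told apart.

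Of the 62 called genes that changed at least 4-fold, 11 reached 5 CPM in the higher group, 10 of them higher and 1 lower. Among genes at 5 CPM or more, with predicted genes and pseudogenes aside, the largest rise was in Angptl4 (chr17:33773750-33781830 of GRCm38), a secreted inhibitor of lipoprotein lipase and a PPAR target. It was at 0.541, 0.907 and 1.28 CPM with vehicle and at 16.3, 14.2 and 19.5 CPM with palmitate, which is a log2 fold change of 4.12 ± 0.30 (SE, edgeR adjusted p = 1.49e-05). Fbp2 (chr13:62836877-62858422), the muscle form of the gluconeogenic enzyme fructose bisphosphatase, was at 0.767, 1.74 and 2.06 CPM with vehicle against 11.6, 24.4 and 19.1 CPM with palmitate, for a log2 fold change of 3.58 ± 0.16 (SE, edgeR adjusted p = 4.42e-07). All 3 palmitate libraries lay above all 3 vehicle libraries for both genes. Star, which carries cholesterol into mitochondria, stood at 5.55, 3.74 and 5.11 CPM with vehicle and at 42.0, 62.7 and 46.4 CPM with palmitate. Its log2 fold change was 3.42 ± 0.23 (SE, edgeR adjusted p = 1.68e-05), and its groups did not overlap.

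The next largest rises under these limits were in genes known from the nervous system and in a laminin chain. Lama3, a laminin chain of basement membranes, was at 0.902, 1.19 and 1.53 CPM with vehicle and at 6.87, 22.7 and 7.95 CPM with palmitate, with replicate 2 standing well above the others (log2 fold change 3.36 ± 0.44, SE). The small GTPase Diras2 rose by 3.00 ± 0.25 (SE) on the log2 scale, from a mean of 16.4 to 126 CPM, and the membrane protein Ttyh1 by 2.46 ± 0.13, from 31.8 to 174 CPM. Vgf, a precursor of secreted peptides stored in neuroendocrine granules, was at 57.2, 64.9 and 80.7 CPM with vehicle and at 344, 382 and 305 CPM with palmitate (log2 fold change 2.36 ± 0.15, SE). Tacr3, the neurokinin receptor for neurokinin B, rose by 2.36 ± 0.24 (SE) and Adcy1, a calcium-stimulated adenylyl cyclase, by 2.26 ± 0.14 on the same scale.

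Under the same limits the largest fall was in Nnat (chr2:157560078-157562522), an imprinted gene whose product neuronatin is a small membrane protein of the endoplasmic reticulum. It was at 78.2, 84.0 and 73.0 CPM with vehicle and at 8.23, 12.8 and 15.4 CPM with palmitate, a log2 fold change of -2.68 ± 0.24 (SE, edgeR adjusted p = 0.000103). Acvr1c (chr2:58267453-58357895), the activin receptor ALK7, was at 16.0, 18.2 and 17.3 CPM with vehicle against 4.84, 4.80 and 5.79 CPM with palmitate, for a log2 fold change of -1.73 ± 0.11 (SE, edgeR adjusted p = 2.1e-06). Both genes were separated between the groups without overlap. The water channel Aqp4 fell by 1.39 ± 0.07 (SE) on the log2 scale, from 16.9, 26.9 and 26.1 CPM to 6.42, 10.2 and 10.0 CPM.

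Tmsb15b2, of the actin-binding beta thymosins, fell from a mean of 112 to 39.3 CPM (log2 fold change -1.50 ± 0.14, SE). Cib3, of a family of calcium-binding proteins, fell by 1.69 ± 0.29 (SE) on the log2 scale. Coq8a, needed for coenzyme Q synthesis, fell by 1.35 ± 0.10 (SE), the microtubule regulator Togaram2 by 1.25 ± 0.13, the potassium channel subunit Dpp10 by 1.23 ± 0.11 and Tmem255a by 1.20 ± 0.08 on that scale. Gbp2, an interferon-induced GTPase, was at 3.43, 4.28 and 9.57 CPM with vehicle and at 1.51, 1.78 and 2.87 CPM with palmitate (log2 fold change -1.47 ± 0.44, SE, edgeR adjusted p = 0.0344). This call was lost without vehicle with C3a replicate 3 (adjusted p = 0.117), palmitate with C3a replicate 1 (adjusted p = 0.123) or replicate 2 (adjusted p = 0.112).

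**Figure D2:**
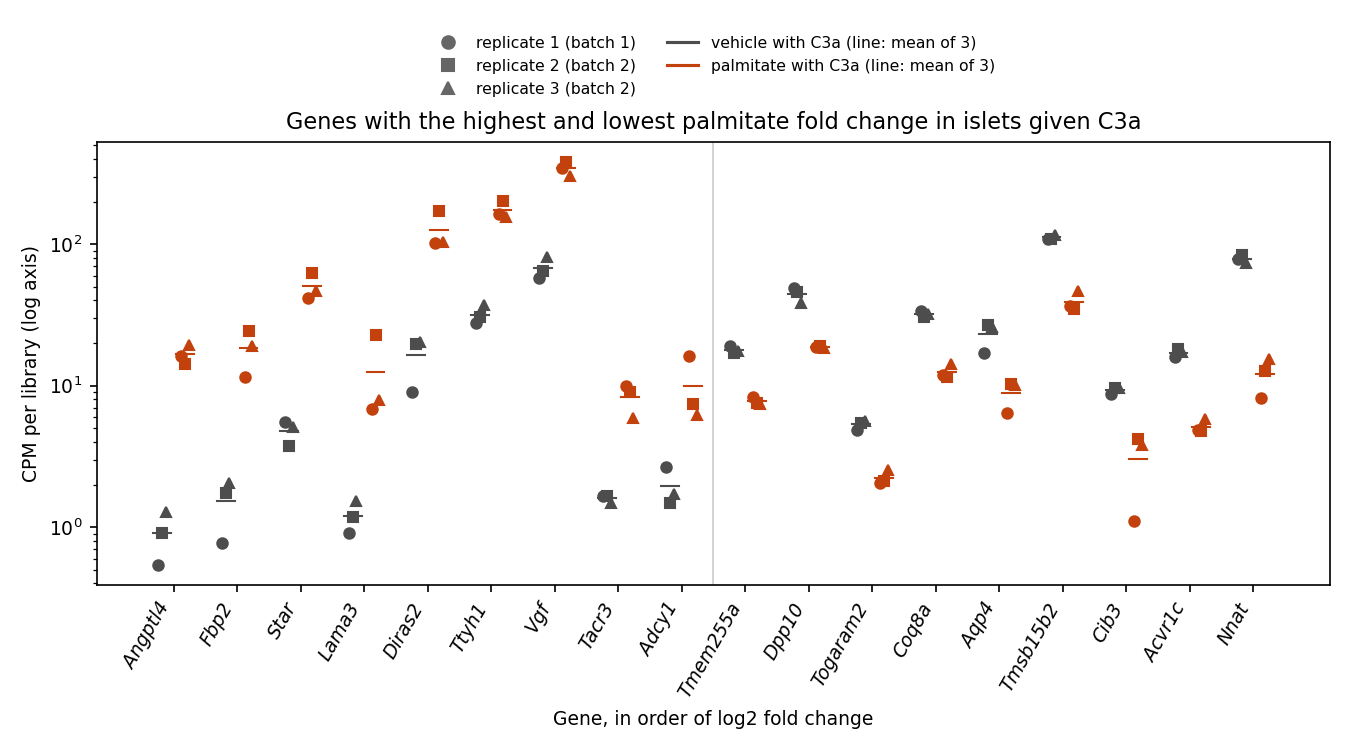
CPM in each library (vertical axis, log scale) of 9 genes with the highest and 9 with the lowest log2 fold change (horizontal axis), limited to genes at 5 CPM or more in the higher group that are not predicted genes or pseudogenes and whose call held whichever of the 6 libraries given C3a was left out, with vehicle with C3a in grey, palmitate with C3a in orange, the replicates by shape and the mean of 3 as a line. The groups do not overlap for any of these 18 genes, which were chosen among called genes for their fold change.

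The largest rises in CPM, a scale that does not correct for transcript length, were in abundant genes. Ftl1, the ferritin light chain that stores iron, rose from a mean of 1546 to 2556 CPM and Eef1a1, a translation elongation factor, from 3886 to 4656 CPM. Chgb, a granin of the secretory granule, rose from 2542 to 3333 CPM, and Pam, which amidates peptide hormones, from 826 to 1551 CPM. Ptprn, the granule membrane protein and autoantigen IA-2, rose from 1062 to 1696 CPM. Gapdh, a glycolytic enzyme, rose from 938 to 1787 CPM (edgeR adjusted p = 0.0164) but was not called without vehicle with C3a replicate 2 (adjusted p = 0.0629) or 3 (0.0529), or without palmitate with C3a replicate 1 (0.0674) or 2 (0.0555).

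The largest falls in CPM began with Chga, another granin, from 14590, 13550 and 13670 CPM to 8381, 10070 and 10490 CPM (log2 fold change -0.53 ± 0.09, SE, edgeR adjusted p = 0.0014). Atp2a3, a calcium pump of the endoplasmic reticulum, fell from a mean of 1427 to 972 CPM, Peg3, an imprinted gene, from 1292 to 888 CPM, and Spock2, a matrix proteoglycan, from 1065 to 714 CPM. Ero1lb, the pancreatic oxidase of disulfide bond formation, was lower at 2444 against 3221 CPM (log2 fold change -0.42 ± 0.13, SE, edgeR adjusted p = 0.0328). Acly, which makes cytosolic acetyl-CoA, was lower at 3053 against 3389 CPM, with groups that overlapped (adjusted p = 0.0472). Both calls were weak: Ero1lb was not called with replicate number as a block (adjusted p = 0.0511) or without vehicle with C3a replicate 1 (0.133) or 2 (0.086), or palmitate with C3a replicate 1 (0.119) or 2 (0.0595). Acly was not called without vehicle with C3a replicate 1 (0.153), 2 (0.118) or 3 (0.0698), or palmitate with C3a replicate 1 (0.0836) or 3 (0.201).

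Genes of fatty acid oxidation and PPAR targets were higher as a group. Of 31 members, all measured, 20 rose and 1 fell, with a median log2 fold change of 0.34, beside 13.8% higher and 13.1% lower over all genes tested. Cpt1a (chr19:3322334-3385733), which makes the acylcarnitines that enter mitochondria, was at 37.7, 45.7 and 50.04 CPM with vehicle and at 151, 178 and 152 CPM with palmitate. Its log2 fold change was 1.86 ± 0.11 (SE, edgeR adjusted p = 3.5e-06), and the gap between the groups was wider than the range within either. Slc25a20, the carrier that takes acylcarnitine across the inner membrane, rose by 0.83 ± 0.05 (SE) on the log2 scale, Acadvl, which oxidizes very long acyl chains, by 0.65 ± 0.05, and Hadha, of the trifunctional protein, by 0.35 ± 0.03. Pdk4, which restrains pyruvate dehydrogenase, rose by 0.97 ± 0.08 and the coactivator Ppargc1a by 1.48 ± 0.16. Hadh, a short-chain enzyme of the same pathway that is abundant in beta cells, went the other way, from 546, 555 and 566 CPM to 324, 382 and 446 CPM (log2 fold change -0.54 ± 0.08, SE). Of the receptors themselves, Ppara was at a mean of 0.597 and 1.06 CPM and Ppard at 65.2 and 61.4 CPM with vehicle and palmitate, and neither was called (edgeR adjusted p = 0.19 and 0.207).

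Of 22 measured genes of triglyceride synthesis, lipid droplets and lipolysis, 6 rose and 2 fell, with a median of 0.18. None fell without vehicle with C3a replicate 1 or 3 or palmitate with C3a replicate 2 or 3, 1 fell without vehicle with C3a replicate 2, and the median was 0.10 without palmitate with C3a replicate 3. Plin2, a coat protein of lipid droplets, was at 33.1, 27.6 and 33.7 CPM with vehicle and at 123, 109 and 97.7 CPM with palmitate, a log2 fold change of 1.80 ± 0.13 (SE, edgeR adjusted p = 1.21e-05). The last enzyme of triglyceride synthesis, Dgat2, rose by 1.67 ± 0.26 (SE) on the log2 scale and Hilpda, an inhibitor of the lipase ATGL, by 1.25 ± 0.19. Gpat3 was low, at a mean of 0.354 and 1.13 CPM, and rose by 1.62 ± 0.33 (SE).

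Fatty acid and cholesterol synthesis did not move 1 way. Among 21 genes of fatty acid synthesis and desaturation 7 rose and 4 fell. The fallers included Mlxipl, which encodes the glucose-responsive factor ChREBP, at 176, 211 and 183 CPM with vehicle and at 79.8, 86.4 and 109 CPM with palmitate (log2 fold change -1.05 ± 0.09, SE), and the lipogenic factor Srebf1 at -0.38 ± 0.05. The risers included the elongase Elovl7 at 0.81 ± 0.10 (SE) and the desaturase Scd1 at 0.60 ± 0.09 on the log2 scale. Among 25 genes of cholesterol synthesis and uptake 7 rose and 6 fell, with a median of 0.02. Sqle, which makes squalene epoxide, rose by 0.34 ± 0.05 (SE) on the log2 scale. Of 23 measured genes of ceramide and sphingolipid synthesis 4 rose and 5 fell, and 3 rose and 1 fell without vehicle with C3a replicate 1. There were 3 fallers without vehicle with C3a replicate 2 or palmitate with C3a replicate 2.

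Genes of the integrated stress response were raised nearly throughout. Of 34 members, 31 rose and 0 fell, and the median log2 fold change was 0.79. Promoters of both this list and the tRNA synthetase list were searched for the C/EBP-ATF element, the composite site through which ATF4 pairs with C/EBP factors, as the letters TGATGNAA on either strand from 250 bases before to 50 bases after the start site. The windows came from the RefSeq annotation of GRCm38.p6, and 28 of the 34 genes had one. The element was found in at least 1 window of 9 of the 28 genes (32.1%): Atf3, Trib3, Chac1, Nupr1, Fgf21, Vldlr, Asns, Pck2 and Slc7a11. All 9 genes were called higher, but so were 26 of the 28 genes with a window, so their rise says little about the element. The calls of Nupr1 (edgeR adjusted p = 0.0333), Fgf21 (0.0272) and, among the synthetases, Gars (0.0301) were each lost when some single library was left out, with adjusted p up to 0.135, 0.126 and 0.117. Of 12 synthetase genes with a window the element was in 5 (41.7%): Aars, Gars, Iars, Tars and Yars. Over all 27025 genes of the annotation with a window the share was 4.51%, and over those tested here 2.84%. A match describes the letters of the window and was not tested for binding.

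Windows of 4 genes are shown because these genes rose and their windows hold the element in different places, strands and numbers. Each is written 5′ to 3′ on the gene's own strand, with the element in capitals, read as TGATGNAA or as its reverse complement. They span chr6:7693160-7693459 on the minus strand for Asns, chr2:119350992-119351291 on the plus strand for Chac1, chr3:50443564-50443863 on the minus strand for Slc7a11 and chr8:111033592-111033891 on the plus strand for Aars, which charges alanine tRNA.
Asns: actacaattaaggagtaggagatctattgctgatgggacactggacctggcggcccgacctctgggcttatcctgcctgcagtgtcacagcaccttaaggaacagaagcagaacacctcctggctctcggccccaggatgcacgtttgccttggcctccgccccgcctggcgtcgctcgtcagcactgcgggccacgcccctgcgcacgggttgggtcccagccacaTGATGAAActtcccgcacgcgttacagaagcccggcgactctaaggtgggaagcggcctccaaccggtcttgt
Chac1: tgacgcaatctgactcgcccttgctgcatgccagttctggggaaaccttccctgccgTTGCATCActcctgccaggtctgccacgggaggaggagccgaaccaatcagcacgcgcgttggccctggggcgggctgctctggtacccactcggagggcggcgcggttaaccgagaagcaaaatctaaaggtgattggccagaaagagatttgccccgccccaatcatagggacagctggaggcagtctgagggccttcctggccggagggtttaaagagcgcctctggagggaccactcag
Slc7a11: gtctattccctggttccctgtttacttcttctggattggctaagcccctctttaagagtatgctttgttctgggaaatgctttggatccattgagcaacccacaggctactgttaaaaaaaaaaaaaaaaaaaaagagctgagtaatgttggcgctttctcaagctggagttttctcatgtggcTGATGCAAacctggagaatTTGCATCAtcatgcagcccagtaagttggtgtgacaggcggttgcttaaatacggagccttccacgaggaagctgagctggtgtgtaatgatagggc
Aars: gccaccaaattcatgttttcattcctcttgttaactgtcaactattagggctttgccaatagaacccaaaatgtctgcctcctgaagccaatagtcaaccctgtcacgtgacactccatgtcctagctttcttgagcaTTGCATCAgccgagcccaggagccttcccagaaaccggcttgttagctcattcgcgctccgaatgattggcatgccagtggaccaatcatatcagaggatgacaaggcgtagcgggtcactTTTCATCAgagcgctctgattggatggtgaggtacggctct

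Asns, asparagine synthetase, holds 1 match that starts 23 bases before the start site, on its own strand. Its RNA was at 199, 176 and 193 CPM with vehicle and at 264, 318 and 326 CPM with palmitate, a log2 fold change of 0.67 ± 0.09 (SE, edgeR adjusted p = 0.000311). Chac1, which degrades glutathione and holds a match 193 bases before the start on the opposite strand, was at 63.2, 45.8 and 52.4 CPM and at 95.0, 101 and 106 CPM, a log2 fold change of 0.92 ± 0.12 (SE). Slc7a11, the cystine importer, holds 2 matches, 66 and 47 bases before the start on opposite strands. It was at 23.7, 13.0 and 11.8 CPM with vehicle and at 51.7, 32.0 and 24.3 CPM with palmitate (log2 fold change 1.16 ± 0.17, SE), with batch 1 higher in both groups.

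The regulators of the response were among the risers. Atf4, its central factor, was at 307, 294 and 330 CPM with vehicle and at 454, 524 and 510 CPM with palmitate (log2 fold change 0.67 ± 0.06, SE, edgeR adjusted p = 1.65e-05). Ddit3 was at 32.2, 24.8 and 38.5 CPM and at 110, 69.2 and 77.7 CPM (1.41 ± 0.25, adjusted p = 0.00377). Trib3, a pseudokinase induced by both, was at 29.7, 25.1 and 35.2 CPM and at 112, 88.3 and 87.6 CPM (1.67 ± 0.19). The groups did not overlap for any of these 3 genes.

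Downstream genes followed in several roles. Eif4ebp1, which restrains cap-dependent translation, rose by 1.05 ± 0.08 (SE) on the log2 scale and Gdf15, a secreted stress factor, by 1.54 ± 0.14. Among amino acid enzymes Psat1 of serine synthesis rose by 1.56 ± 0.14 and the transaminase Gpt2 by 0.93 ± 0.08. The 3 members without a call were Cth, Ddit4 and Slc38a2, at log2 fold changes of 0.31 ± 0.25, 0.17 ± 0.10 and 0.10 ± 0.05. Of the 20 cytosolic tRNA synthetases 18 rose and 0 fell, with a median of 0.36. Sars, which charges serine tRNA, had the lowest p: 243, 229 and 245 CPM with vehicle and 400, 412 and 403 CPM with palmitate (log2 fold change 0.76 ± 0.04, SE, edgeR adjusted p = 1.93e-06). Aars, whose window holds 2 matches, rose by 0.54 ± 0.04 and Rars by 0.56 ± 0.05 on that scale, while Dars and Qars were not called (0.09 ± 0.04 and 0.04 ± 0.08). In no fit tried did the number of called members of either list move by more than 1.5 times.

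**Figure D3:**
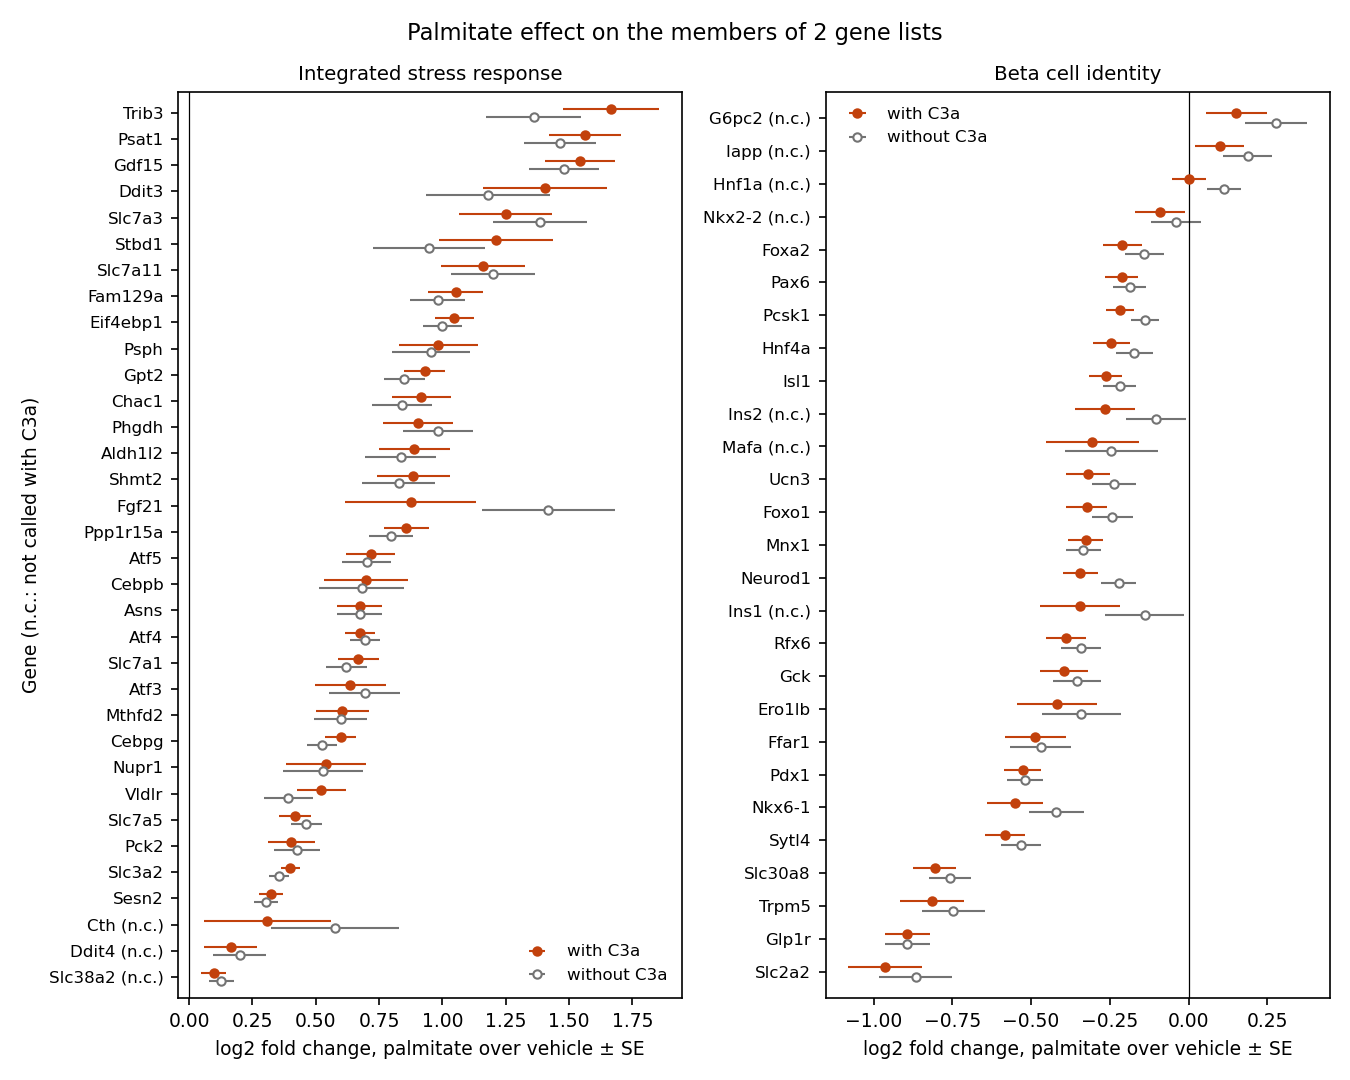
Log2 fold change of palmitate over vehicle with its standard error (horizontal axis) for the 34 integrated stress response genes and the 27 beta cell identity genes (vertical axes), with C3a as filled orange points and without C3a as open grey points. All 34 stress response points with C3a lie above 0, and the beta cell genes called with C3a all lie below 0. The open points lie near the filled ones for most genes.

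The endoplasmic reticulum chaperone, degradation and sensor genes moved less. Of 28 members 13 rose and 1 fell, with a median of 0.17, but only 8 rose without vehicle with C3a replicate 3 or without palmitate with C3a replicate 2, and 6 with replicates 2 and 3 alone. Only 2 rose without the batch term. The chaperone Hspa5 (BiP) was at 1919, 1998 and 1873 CPM with vehicle against 2245, 2199 and 2103 CPM with palmitate, for a log2 fold change of 0.18 ± 0.05 (SE, edgeR adjusted p = 0.0278). This call was lost without vehicle with C3a replicate 1 (adjusted p = 0.112) or 3 (0.0959), or palmitate with C3a replicate 1 (0.113) or 2 (0.0838). The sensor Ern1 (IRE1) rose by 0.49 ± 0.09 (SE) on the log2 scale and Derl1, which moves proteins out for degradation, by 0.54 ± 0.04. Xbp1, whose RNA is spliced by IRE1, was not called at 0.06 ± 0.04 for its summed transcripts.

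Of 32 autophagy and lysosome genes 16 rose and 4 fell, with a median of 0.14. Sqstm1, the autophagy receptor p62, was at 569, 590 and 678 CPM with vehicle and at 1154, 1248 and 1122 CPM with palmitate (log2 fold change 0.94 ± 0.06, SE, edgeR adjusted p = 3.69e-06). Gla, a lysosomal galactosidase, rose by 1.32 ± 0.10 (SE) on the log2 scale and the protease Ctsb by 0.53 ± 0.05. The 4 fallers belonged to the autophagy side: the kinase Ulk1 (-0.32 ± 0.05), the lipid scramblase Atg9a (-0.23 ± 0.04), the receptor Nbr1 (-0.20 ± 0.04) and Map1lc3b, which coats autophagosomes (-0.20 ± 0.05). The call of Map1lc3b was lost without vehicle with C3a replicate 3 (edgeR adjusted p = 0.0828) or palmitate with C3a replicate 1 (0.0561) or 2 (0.0812).

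Of 26 antioxidant and NRF2 target genes 16 rose and 1 fell, with a median of 0.21. The number of risers was 8 without vehicle with C3a replicate 2 and 10 without vehicle with C3a replicate 1. Srxn1, which restores oxidized peroxiredoxins, rose by 0.58 ± 0.05 (SE) on the log2 scale and Cat, which breaks down hydrogen peroxide, by 0.47 ± 0.08. Hmox1, which breaks down heme, was at 69.8, 75.0 and 101 CPM with vehicle and at 152, 377 and 170 CPM with palmitate, highest in replicate 2 (log2 fold change 1.46 ± 0.41, SE, edgeR adjusted p = 0.0347). Without any 1 of the libraries other than palmitate with C3a replicate 3, Hmox1 was not called, at an adjusted p of 0.0619 to 0.121. The core antioxidant element, searched as TGACNNNGC on both strands, was in 8 of the 21 list genes with a promoter window (38.1%). The share was 14.0% over all genes with a window and 16.9% over those tested here. A sterol regulatory element, TCACNCCAC, was in 1 of 17 such genes of the cholesterol list (5.88%), against 1.44% and 1.41%. That gene, Hmgcs1, was called lower. The full cAMP response element, TGACGTCA, was in 2 of 19 such genes of the list of immediate early genes described below (10.5%), against 2.03% and 3.39%. Of these Maff was called higher and Btg2 lower, and the call of Btg2 was lost when some single libraries were left out.

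Genes of protein synthesis were raised by small, even amounts. Of 29 measured cytosolic ribosomal protein genes 27 rose and 0 fell, with a median of 0.29. Rps2 was at 438, 522 and 568 CPM with vehicle and at 652, 743 and 776 CPM with palmitate (log2 fold change 0.51 ± 0.05, SE, edgeR adjusted p = 4.69e-05), and Rpl3 rose by 0.49 ± 0.04. Without the batch term 11 of the ribosomal genes were called higher. Near-identical ribosomal pseudogenes can share their reads, so single values are uncertain. Of 31 proteasome subunits 11 rose and 0 fell, with a median of 0.14. That count was 18 with replicate number as a block, 5 without vehicle with C3a replicate 1, palmitate with C3a replicate 1 or palmitate with C3a replicate 3, and 4 without vehicle with C3a replicate 2. It was 1 without the batch term. Of 32 nuclear genes of oxidative phosphorylation 11 rose and 1 fell (5 and 2 without vehicle with C3a replicate 2, 7 and 2 without palmitate with C3a replicate 3), among them Cyc1, the cytochrome of complex III, at 0.38 ± 0.05 (SE). Of the 13 subunits encoded in mitochondrial DNA none was called by edgeR or DESeq2, and none had an unadjusted p under 0.05 by edgeR. Their median was -0.08, with 0.10 without vehicle with C3a replicate 2 and -0.16 without replicate 3. Without vehicle with C3a replicate 1, 1 of the 13 was called lower.

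Hypoxia and glycolysis genes were higher, with a large spread between libraries. Of 29 members 13 rose and 1 fell, and the median was 0.70. Ero1l, a hypoxia-induced oxidase of the endoplasmic reticulum, was at 152, 199 and 219 CPM with vehicle and at 340, 568 and 337 CPM with palmitate (log2 fold change 1.13 ± 0.24, SE, edgeR adjusted p = 0.00861). Hif1a, the oxygen-regulated factor itself, rose by 0.25 ± 0.06 (SE) on the log2 scale. Its relative Epas1 fell by 0.62 ± 0.18, a call lost without vehicle with C3a replicate 1 (edgeR adjusted p = 0.1) or 2 (0.116) or palmitate with C3a replicate 1 (0.117) or 2 (0.0854). Palmitate with C3a replicate 2 was the highest library for most of the list. Without that library 4 members rose and the median was 0.50, without palmitate with C3a replicate 3 17 rose and the median was 0.93, and with replicates 2 and 3 alone 0 rose at a median of 0.73. Without any 1 of the vehicle with C3a libraries 4 rose, and without palmitate with C3a replicate 1, 2 rose. With replicate number as a block 22 rose. The part of that library's level in the result was otherwise not tested.

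Immediate early and cAMP-responsive genes were mostly higher: of 28 measured members 17 rose and 2 fell, with a median of 0.78, and none fell without replicate 1 of either group. Maff, a small MAF factor, was at 12.1, 13.8 and 16.8 CPM with vehicle and at 30.5, 45.3 and 34.8 CPM with palmitate (log2 fold change 1.37 ± 0.13, SE, edgeR adjusted p = 5.59e-05). The nuclear receptor Nr4a1 rose by 1.36 ± 0.20 (SE) on the log2 scale, and Nr4a2 by 0.89 ± 0.09.

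Of 20 measured dual-specificity phosphatases, which remove phosphate from MAP kinases and other proteins, 7 rose and 3 fell, with 1 faller left without vehicle with C3a replicate 1 or 2 or palmitate with C3a replicate 1. Dusp4 was at 19.3, 29.0 and 24.3 CPM with vehicle and at 73.6, 82.5 and 68.6 CPM with palmitate (log2 fold change 1.64 ± 0.16, SE, edgeR adjusted p = 1e-04), and Dusp3 rose by 0.51 ± 0.05. Dusp26, looked up because published work on C3a and beta cells names it, was at 20.9, 21.0 and 14.6 CPM and at 15.7, 15.4 and 13.1 CPM, with groups that overlapped. Its log2 fold change of -0.35 ± 0.12 (SE) was called narrowly (edgeR adjusted p = 0.048). The call was lost without vehicle with C3a replicate 1 (adjusted p = 0.13) or 2 (0.224), or palmitate with C3a replicate 1 (0.132) or 3 (0.136). Of 16 heat shock genes 6 rose and 1 fell, with Hspd1, a mitochondrial chaperonin, at 0.33 ± 0.07 (SE). Fewer heat shock genes rose without vehicle with C3a replicate 1 (4) or 2 (3) or palmitate with C3a replicate 1 (3).

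Genes of apoptosis changed in both directions and by little. Of 28 proapoptotic genes 5 rose and 6 fell, not far from the 13.8% and 13.1% of all genes tested. The fallers included Bcl2l11, which encodes the BH3-only protein BIM, from 23.2, 22.5 and 21.6 CPM to 13.8, 16.3 and 15.0 CPM (log2 fold change -0.57 ± 0.08, SE, edgeR adjusted p = 0.000371), and the kinase Dapk1 at -0.38 ± 0.06. The number of risers was 0 to 3 and of fallers 2 to 5 when any 1 of the 6 libraries was left out. Of 14 antiapoptotic genes 1 rose and 2 fell, beside 13.8% higher and 13.1% lower over all genes tested. Bcl2l1 (BCL-XL) rose by 0.37 ± 0.06 (SE), while Cflar, which blocks caspase activation, fell by 0.24 ± 0.05 and Birc2 by 0.27 ± 0.04.

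Among genes of inflammation and NF-kB signalling, 3 of 29 measured rose and 3 fell, a smaller share in each direction than the 13.8% and 13.1% of all genes tested. Without vehicle with C3a replicate 3, 5 rose, and without palmitate with C3a replicate 1, 1 fell. Ptgs2, which makes prostaglandins, was at 0.902, 1.67 and 1.70 CPM with vehicle and at 8.75, 5.31 and 3.65 CPM with palmitate (log2 fold change 1.91 ± 0.34, SE, edgeR adjusted p = 0.00198). Il6 was at 0, 0.302 and 0.265 CPM and at 1.37, 1.09 and 1.05 CPM, without overlap (adjusted p = 0.00589). Tlr2, a receptor for bacterial lipoproteins, fell by 0.57 ± 0.12 (SE) on the log2 scale. Interferon-stimulated and MHC class I genes leaned lower, with 1 riser and 7 fallers of 29 and a median of -0.20. Psmb9, a subunit of the immunoproteasome, fell by 0.63 ± 0.12 (SE). Without vehicle with C3a replicate 2, 12 of these genes fell. Only 3 fell, at a median of -0.07, without vehicle with C3a replicate 3, 4 without palmitate with C3a replicate 2 and 2 without palmitate with C3a replicate 1. Among 27 proliferation genes 3 rose and 2 fell, a smaller share in each direction than over all genes tested, at a median of -0.09. The risers were the replication factors Pcna (0.42 ± 0.07, SE) and Mcm2 (0.49 ± 0.08) and the kinase Cdk4 (0.27 ± 0.04). The cyclins Ccnd2 and Ccne2 fell, but neither was called without vehicle with C3a replicate 1 or 3 or palmitate with C3a replicate 1 or 3.

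Of the complement genes, C3ar1, the receptor for the peptide given to both groups, was at 12.7, 11.2 and 10.4 CPM with vehicle and at 8.93, 10.5 and 14.4 CPM with palmitate. Its groups overlapped and its log2 fold change was 0.00 ± 0.16 (SE, edgeR adjusted p = 0.996). C3 was at 9.93, 13.5 and 12.1 CPM and at 17.3, 20.2 and 70.4 CPM. Its log2 fold change of 1.61 ± 0.63 was not called by edgeR (adjusted p = 0.105) and was called by DESeq2 (adjusted p = 0.0312), and its highest library was palmitate with C3a replicate 3, the one with the most fibroblast marker RNA. Without that library the log2 fold change was 0.61 (edgeR adjusted p = 0.358). Of 22 measured complement genes 1 rose and 2 fell, a smaller share in each direction than the 13.8% and 13.1% of all genes tested. C5ar1, the receptor of the related peptide C5a, rose by 0.87 ± 0.20 (SE, edgeR adjusted p = 0.00809). C1qa, of the first component, and Cd59a, which blocks the membrane attack complex, fell by 0.59 ± 0.14 and 0.51 ± 0.07. C5ar1 was at 2.48, 2.23 and 2.70 CPM with vehicle and at 3.84, 3.50 and 6.14 CPM with palmitate.

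Beta cell identity genes were lower with palmitate. Of 27 members 20 fell and 0 rose, and the median log2 fold change was -0.33. Slc2a2, the glucose transporter GLUT2, was at 569, 606 and 512 CPM with vehicle and at 244, 294 and 331 CPM with palmitate (log2 fold change -0.96 ± 0.12, SE, edgeR adjusted p = 0.000247). Glp1r, which binds the gut hormone GLP-1, was at 240, 324 and 291 CPM and at 138, 163 and 158 CPM (-0.89 ± 0.07, adjusted p = 9.47e-06). Slc30a8, which loads zinc into insulin granules, was at 721, 724 and 629 CPM and at 384, 387 and 414 CPM (-0.81 ± 0.07, adjusted p = 1.24e-05). For these 3 genes every palmitate library lay below every vehicle library.

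Several of the fallers are transcription factors of the beta cell. Pdx1, the master factor of pancreas and beta cells, was at 279, 355 and 327 CPM with vehicle and at 177, 248 and 247 CPM with palmitate (log2 fold change -0.53 ± 0.06, SE, edgeR adjusted p = 7.15e-05). Nkx6-1 fell by 0.55 ± 0.09 (SE) on the log2 scale, Rfx6 by 0.39 ± 0.06 and Neurod1 by 0.34 ± 0.06. Mafa differed far more between batches, at 115 CPM in vehicle replicate 1 and 929 and 720 CPM in replicates 2 and 3, and was not called (-0.31 ± 0.15, adjusted p = 0.166). Without the batch term 10 of the 27 genes were called.

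The insulin genes were lower in every palmitate library than in every vehicle library but did not pass the test. Ins1 was at 51130, 52290 and 54010 CPM with vehicle and at 30750, 47450 and 47750 CPM with palmitate, a log2 fold change of -0.35 ± 0.13 (SE, edgeR adjusted p = 0.0671). Ins2 was at 118100, 94920 and 97790 CPM and at 82040, 85500 and 89640 CPM (-0.27 ± 0.10, adjusted p = 0.0617). DESeq2 called both (adjusted p = 0.0156 and 0.0178). The amyloid peptide gene Iapp was at 0.10 ± 0.08 and not called, as were the hormones of other islet cells, Gcg at 0.04 ± 0.06, Sst at -0.01 ± 0.10 and Ppy at -0.40 ± 0.26.

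In the list of 24 genes of insulin granules and exocytosis, 9 rose and 7 fell, and 4 fell without vehicle with C3a replicate 1 or palmitate with C3a replicate 1 or 2. The risers Vgf, Pam, Ptprn, Chgb and Scg3 are granule proteins or peptide enzymes, and the fallers included Chga, the phosphatase-like Ptprn2 (-0.47 ± 0.07, SE) and the docking GTPase Rab27a (-0.34 ± 0.05). Of 26 genes of glucose sensing and ion channels 8 fell and 0 rose. They included the potassium channel Kcnk16, from 148, 123 and 121 CPM to 104, 84.2 and 85.0 CPM (log2 fold change -0.52 ± 0.04, SE, edgeR adjusted p = 9.84e-06), and the cation channel Trpm5 (-0.81 ± 0.10). The subunits of the ATP-sensitive potassium channel, Kcnj11 and Abcc8, were not called (0.05 ± 0.05 and -0.02 ± 0.06).

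Of 35 measured islet G protein-coupled receptors 12 fell and 2 rose, with a median of -0.18, which was -0.10 without vehicle with C3a replicate 2 or palmitate with C3a replicate 3. Besides Glp1r, the glucagon receptor Gcgr was at 32.0, 34.3 and 31.9 CPM with vehicle and at 14.4, 17.9 and 23.1 CPM with palmitate (log2 fold change -0.83 ± 0.10, SE, edgeR adjusted p = 0.00017). The fatty acid receptors Ffar1 and Ffar3 fell by 0.49 ± 0.10 and 0.62 ± 0.07 (SE). The risers were Tacr3 and the vasopressin receptor Avpr1b (0.97 ± 0.12). Of 20 genes that beta cells normally keep low or that mark dedifferentiation 4 rose and 2 fell, not far from the 13.8% and 13.1% of all genes tested. Only 2 risers were left without vehicle with C3a replicate 2 or 3 or palmitate with C3a replicate 1 or 2. The lactate carrier Slc16a1 rose by 1.10 ± 0.15 (SE), and Nnat, given above, was among the fallers.

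Markers of the other islet cell types moved unevenly. Of 13 alpha cell genes 2 rose and 5 fell: Gc, a vitamin D binding protein, rose from 89.1, 84.5 and 98.1 CPM to 203, 173 and 172 CPM, and the amino acid carrier Slc7a2 fell from 612, 560 and 495 CPM to 335, 286 and 292 CPM. Their log2 fold changes were 1.01 ± 0.08 and -0.87 ± 0.07 (SE). Of 9 delta cell genes 1 fell (none without vehicle with C3a replicate 1), not far from the 13.1% lower over all genes tested. Of 6 PP cell genes 2 fell, and the medians of the delta and PP cell lists were -0.08 and -0.17. Of 26 acinar genes none was called by edgeR or DESeq2, and none had an unadjusted p under 0.05 by edgeR, at a median of 0.04. Of 11 duct genes 3 rose, the secreted protein Spp1 by 1.38 ± 0.21 (SE) and the keratins Krt8 by 0.44 ± 0.13 and Krt18 by 0.49 ± 0.09. The call of Krt8 was lost with replicate number as a block (edgeR adjusted p = 0.0507) and without vehicle with C3a replicate 1 (0.133) or 2 (0.0934) or palmitate with C3a replicate 1 (0.121).

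For markers of endothelial cells, fibroblasts and pericytes, macrophages, lymphocytes and Schwann cells, the numbers called depended on single libraries. Of 15 endothelial markers 4 fell and 0 rose, with a median of -0.37 and a summed level of 267, 357 and 358 CPM with vehicle and 171, 295 and 264 CPM with palmitate. Kdr, the VEGF receptor of endothelial cells, was at 42.1, 54.3 and 53.2 CPM and at 19.2, 32.2 and 26.4 CPM (log2 fold change -0.96 ± 0.17, SE, edgeR adjusted p = 0.00258). The endothelial count was 2 without vehicle with C3a replicate 1, palmitate with C3a replicate 1 or palmitate with C3a replicate 3, 0 with replicates 2 and 3 alone and 7 with replicate number as a block. The endothelial median stayed between -0.38 and -0.29 when any 1 of these libraries was left out. The median of the 15 fibroblast and pericyte markers was 0.37 with all libraries and -0.86 without palmitate with C3a replicate 3. Of these markers 2 were called lower, a share close to the 13.1% lower over all genes tested. The count was 4 by DESeq2 and 0 with the block or upper-quartile scaling. It was 0 without vehicle with C3a replicate 2 or without palmitate with C3a replicate 1. It was 1 without vehicle with C3a replicate 1 or 3 or palmitate with C3a replicate 2. The median of the 15 macrophage markers was 0.10 and turned to -0.16 without palmitate with C3a replicate 3. Of them Cd68 rose by 0.73 ± 0.09 (SE) and C1qa fell as given above, a smaller share in each direction than the 13.8% and 13.1% of all genes tested. By DESeq2 or without palmitate with C3a replicate 1, 3 of them rose. Of 4 measured lymphocyte markers and of 8 Schwann cell markers 1 each fell, the Schwann cell share being close to the 13.1% of all genes tested. The lymphocyte marker was not called without vehicle with C3a replicate 1 or 2 or palmitate with C3a replicate 3. Without palmitate with C3a replicate 2 and 3, 3 and 2 Schwann cell markers fell.

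**Figure D4:**
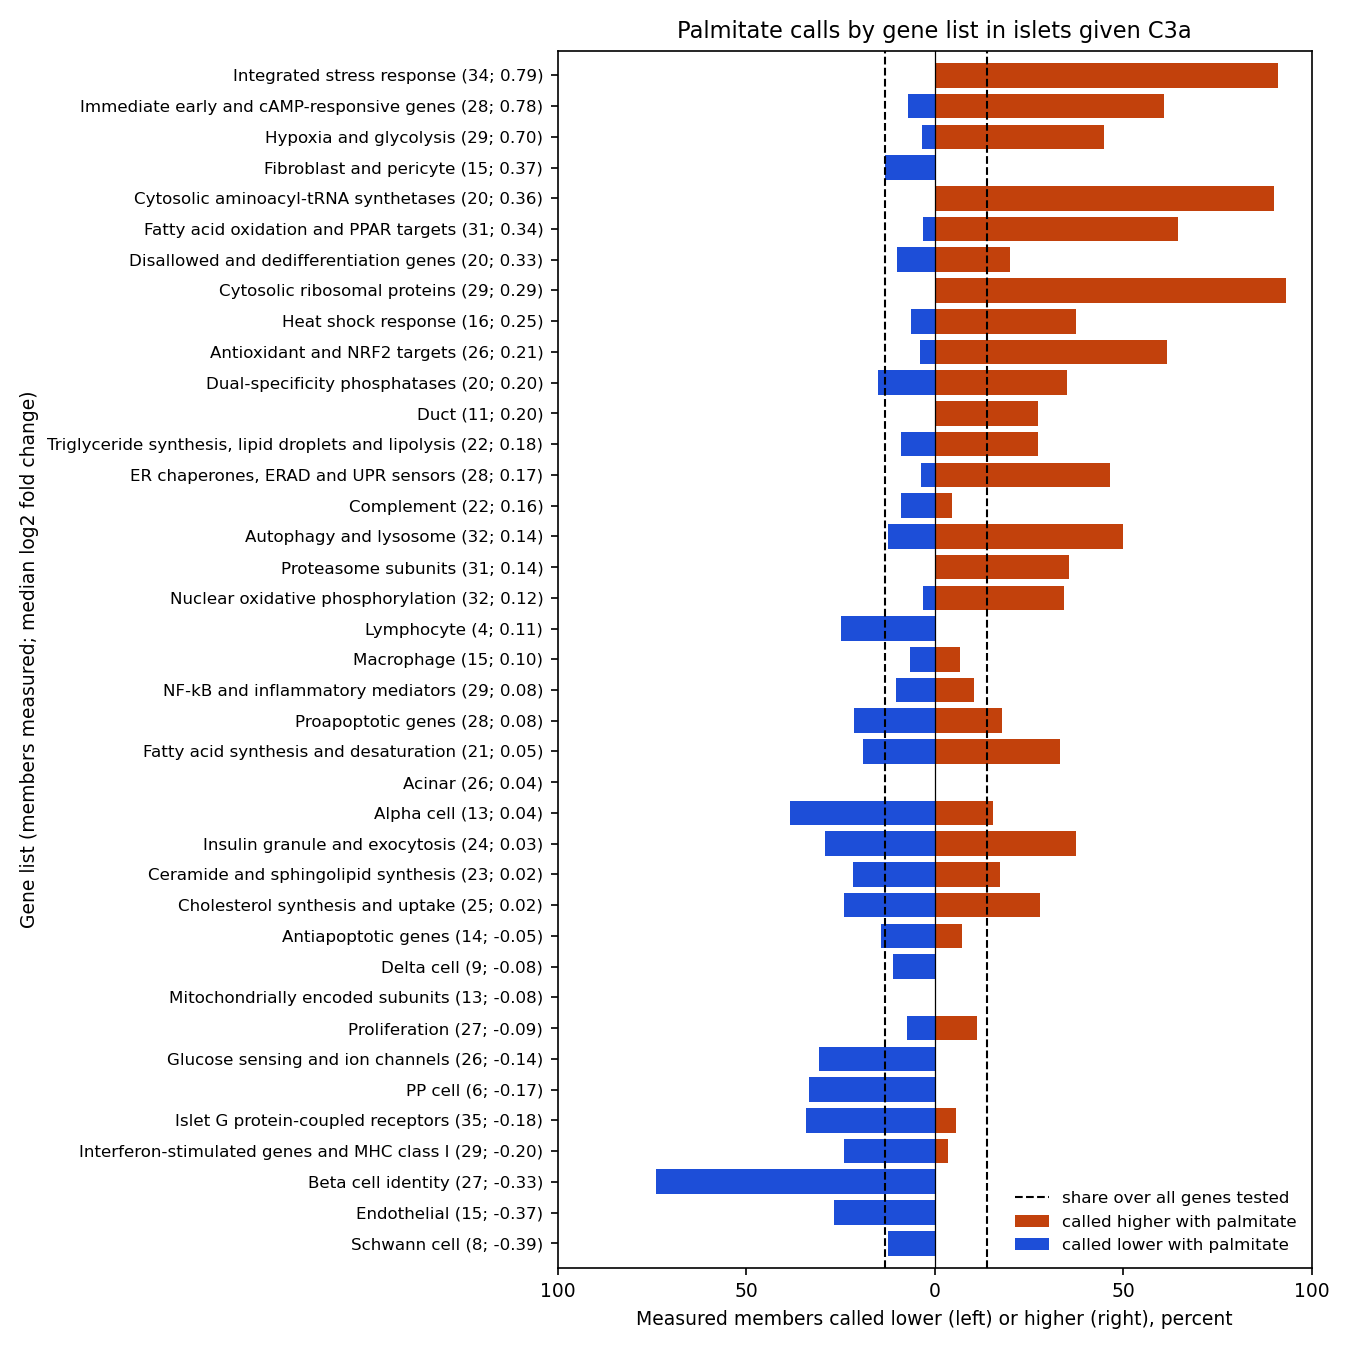
Share of the measured members of 39 gene lists (vertical axis, with the number measured and the median log2 fold change) that were called higher (orange, to the right) or lower (blue, to the left) with palmitate in islets given C3a, in percent (horizontal axis). The dashed lines give the shares over all genes tested, 13.8% higher and 13.1% lower. Stress response, tRNA synthetase and ribosomal protein genes reach furthest to the right and beta cell identity genes furthest to the left.

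The palmitate effect was also estimated in islets without C3a, from 6 libraries that share none with those above but enter the same fit with the same batch term. There 4005 genes were called (25.4% of those tested), 2112 higher and 1893 lower. Both comparisons called 3268 genes, 77.0% of the list with C3a and 81.6% of the list without, and all 3268 had the same direction in both. With C3a, 3977 (99.3%) of the genes called without it kept their sign. Across these 4005 genes, which share the fit and the sequencing batches, the log2 fold changes correlated at a Pearson r of 0.867 and a Spearman rho of 0.957. The genes called higher without C3a had a median of 0.32 there and 0.31 with C3a, and those called lower -0.35 and -0.34. Of 978 genes called with C3a alone, 958 (98.0%) had the same sign without C3a.

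The genes called higher without C3a, a list drawn from other libraries, took 17.8%, 18.0% and 18.9% of the tested counts in vehicle with C3a and 23.7%, 23.4% and 23.2% in palmitate with C3a. Those called lower took 14.5%, 15.0% and 14.7% and then 11.2%, 11.4% and 11.7%. The groups did not overlap in either share.

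**Figure D5:**
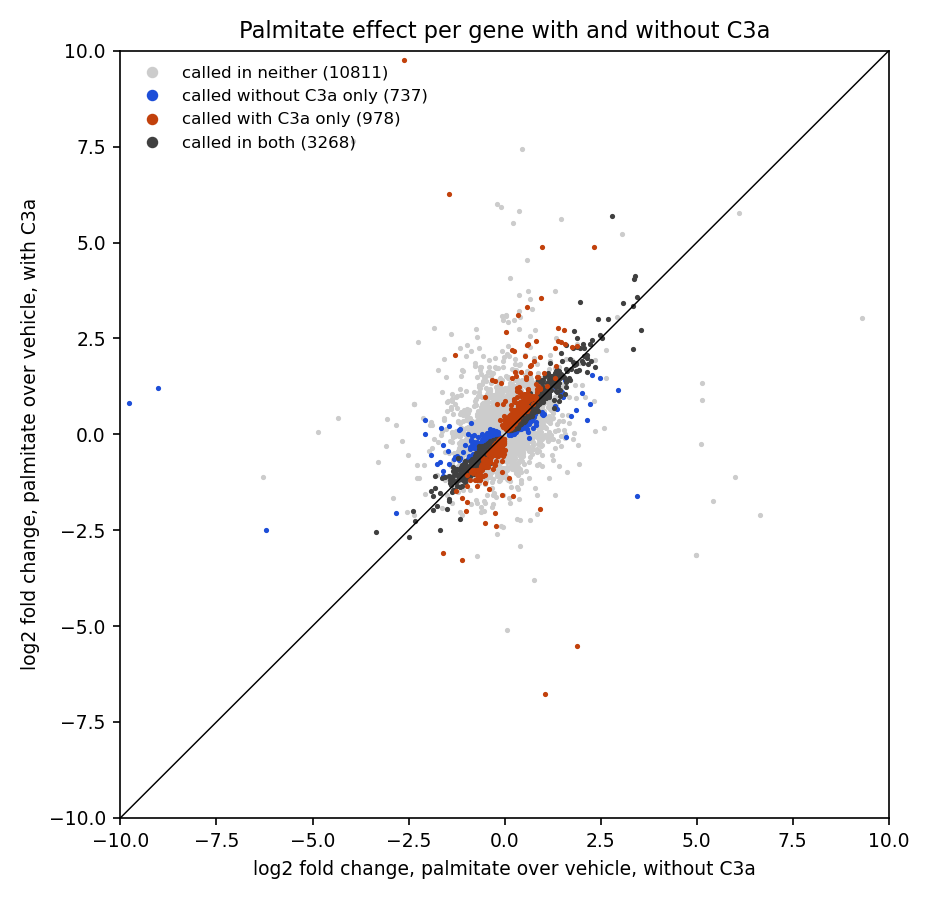
Log2 fold change of palmitate over vehicle without C3a (horizontal axis) and with C3a (vertical axis) for each of the 15794 genes tested, coloured by the comparisons that called them; the line marks equal effects. The 3268 genes called in both lie along the line, and no gene passed the test of the difference between the effects.

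The difference between the effects was tested gene by gene as an interaction, palmitate with C3a minus palmitate without it. No gene was called by edgeR (lowest adjusted p = 1), by DESeq2, or with replicate number as a block. At an unadjusted p under 0.05 there were 251 genes by edgeR (1.59% of those tested), 207 by DESeq2 and 332 with the block. Evenly spread p-values would put a share of 0.05 of the genes there, and each count is below that. The interaction test may therefore be conservative here, and the lack of calls does not show equal effects. The reason was not tested. Among the 4246 called genes the 95% interval of the difference reached a median of 0.21 to either side on the log2 scale, and for 4010 of them (94.4%) the interval lay between -1 and 1. These intervals are not adjusted for the number of genes, so differences larger than their reach can also go uncalled.

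Values that did not pass are given for Igfbp3 and DXBay18, from the genes with the smallest interaction p, and for C5ar1, added as a complement gene. Igfbp3, which binds insulin-like growth factors, had a palmitate log2 fold change of 0.23 ± 0.06 (SE) with C3a and -0.07 ± 0.06 without, a difference of 0.30 (95% interval 0.12 to 0.47, unadjusted p = 0.00293, edgeR adjusted p = 1). Its own call with C3a was lost without vehicle with C3a replicate 2 (adjusted p = 0.0566). DXBay18 had -0.10 ± 0.16 with C3a and 0.64 ± 0.16 without, a difference of -0.74 (95% interval -1.23 to -0.24, unadjusted p = 0.00693, adjusted p = 1). C5ar1 had 0.87 ± 0.20 and 0.02 ± 0.20, a difference of 0.85 (95% interval 0.22 to 1.48, unadjusted p = 0.0125, adjusted p = 1). Genes of other lists had a smaller unadjusted p by edgeR, down to 0.00635 among the islet G protein-coupled receptors. Among genes with large palmitate changes Angptl4 differed by 0.73 (95% interval -0.20 to 1.66), Fbp2 by 0.12 (-0.35 to 0.59), Nnat by -0.19 (-0.95 to 0.56) and Slc2a2 by -0.10 (-0.46 to 0.27). Dusp26 had log2 fold changes of -0.35 ± 0.12 with C3a and -0.39 ± 0.12 without, a difference of 0.04 (95% interval -0.33 to 0.41). For Ins1 the difference was -0.21 (95% interval -0.60 to 0.19) and for Ins2 -0.16 (-0.46 to 0.14).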

How the data were processed

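Messenger RNA of cultured islets was sequenced from a kit that marks strand, per the labels' protocols. The authors deposited a table of estimated counts per transcript. The submitters' processing notes name kallisto, DESeq2 and GRCm38, with no version or role. The strand setting of the counting is not given in the sources used here. Overlapping, antisense and near-identical genes are therefore uncertain. Of 71524 transcripts 69942 matched GENCODE M21 and were added up to 22141 genes. The other 1582, with 0.581% to 0.677% of each library's counts, were left out.

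Gene sums were rounded, and 15794 genes passed the filterByExpr filter of edgeR 4.0.16 (R 4.3.3). All 12 libraries were fitted with group and sequencing batch as terms (7 residual degrees of freedom, common biological coefficient of variation 11.2%), after TMM scaling with factors of 0.967 to 1.045. Quasi-likelihood tests gave palmitate effects with and without C3a and their interaction, and p-values were adjusted by Benjamini-Hochberg over all genes. CPM are counts per 1000000 after TMM scaling. Standard errors are the log2 fold change divided by the root of its F statistic. The fits were tested on simulated data. Same-numbered libraries of different groups deviated together in all 18 pairs (lowest correlation 0.395). Batch was not removed from these values and replicate 1 alone is batch 1, so the correlations cannot tell pairing from batch. The labels give replicates 2 and 3 a date shared by the groups. On the ground of these dates replicate numbers were taken to pair libraries, and a fit with them as a block was run. Replicate 1 of each group is sequencing batch 1.

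The members and the 39 gene lists were chosen with earlier results of these data known. Genes named were the 10 highest and 10 lowest folds at 5 CPM or more with 1 direction in all pairs, leaving out predicted genes and pseudogenes, the 6 largest rises and 6 largest falls in CPM, and per list the lowest p values (4 in pathway lists, 2 in cell type lists). Added to these were the smallest interaction p values and C3, C3ar1, Cfd, Dusp26, Ins1, Ins2 and Gcg, of which Cfd did not pass the filter. A further 52 genes were named after their values were seen. Among these are Ddit3, Trib3, Asns, Chac1, Slc7a11, Hadh, Hspa5, Hmox1, Mafa and Iapp. Alternatives covered scaling, the low-count filter, DESeq2 1.42.0, the batch term, the block, the libraries in the fit and single libraries left out. For the palmitate calls each of the 6 libraries given C3a was left out, and for the interaction each of all 12. Some genes that this rule names are not reported here.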

Additional observations from a re-analysis of the deposited data

How the results depend on the processing

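The count of genes called, 4246, was 4244 with RLE size factors, 4182 with upper-quartile scaling, 3878 without the low-count filter, 4288 with a CPM filter, 4256 by DESeq2 and 3224 with only the 6 libraries given C3a. Without the batch term it was 2074 (1042 higher, 1032 lower), and with batch 2 alone 2331 (1178 higher, 1153 lower). Leaving out 1 of the 6 libraries gave 3023 to 3849 calls. No gene called both ways changed sign under any of these alternatives. With replicate number as a block, a pairing of same-numbered libraries, 4779 genes were called. Of the genes named by rule, the block ended the calls of Acta2 (edgeR adjusted p = 0.0617), Ero1lb (0.0511) and Pdgfrb (0.0599). Of those added later it ended the calls of Krt8 (0.0507) and Nupr1 (0.0529), and it changed no other call of a named gene from called to not called. Of 152 genes named by rule and called, 132 stayed called whichever of the 6 libraries given C3a was left out. Without the batch term 39 lost their call, and 20 did in batch 2 alone. The number of members called moved by over 1.5 times for 25 of 39 lists without the batch term and for 18 in batch 2 alone. Interaction calls stayed at 0 under all of these alternatives except the fit of 6 libraries, which cannot give them.

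Values near 0 changed sign. The log2 fold change of C3ar1 was -0.003 with RLE size factors or without the low-count filter, -0.000 with the CPM filter, -0.008 by DESeq2, -0.015 without the batch term, -0.006 with the block, -0.014 with only the 6 libraries, and -0.239 to 0.201 with 1 library left out. With batch 2 alone the log2 fold changes were 0.074 for DXBay18, 0.038 for Sst and -0.078 for Qars, and the sphingolipid median was -0.010. That median was -0.012 with the CPM filter and -0.011 to 0.040 with 1 library left out. Leaving out 1 library also gave -0.207 to 0.067 for DXBay18, -0.164 to 0.008 for mt-Atp6, -0.100 to 0.062 for Sst, -0.068 to 0.116 for Qars, -0.086 to 0.032 for Abcc8 and -0.024 to 0.189 for the median of NF-kB and inflammatory genes. Medians of other lists that also turned sign with 1 library left out were 0.103 for mitochondrially encoded subunits, -0.109 for acinar, 0.008 for proliferation, -0.007 for granule, -0.046 for complement, -0.185 for alpha cell, -0.862 for fibroblast and pericyte, -0.158 for macrophage and -0.041 for lymphocyte genes. In each case the cause was not tested.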
